A study of Mus musculus with 14 samples.

Results

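The comparison described here is that of 2 doses of cyclophosphamide in mouse mammary tumours, the higher (CTX140) against the lower (CTX100). It was chosen by the treatment label, takes 10 of the 14 RNA-seq libraries of the series, 5 per dose, and was tested on 15360 genes that passed a filter on low counts. The remaining 4 libraries came from animals given PBS, the vehicle, and appear as background. All 14 tumours were grown from 4T1 cells, a mouse mammary carcinoma line used as a model of triple-negative breast cancer, with 1000000 cells placed under the skin of the mammary area. Treatment started on day 9, at a tumour volume near 100 mm3, with intraperitoneal injections every 6 days of PBS, of 100 mg/kg cyclophosphamide or of 140 mg/kg cyclophosphamide. Tumours were removed 3 days after the third injection. The animals' strain, age and sex are not given in the labels used here. The labels describe the cells as TNBC cells, but the RNA came from pieces of whole tumour, and all tumours derive from 1 cell line. The keratin gene Krt8, a marker of carcinoma epithelium, was read at 993, 1201, 1104, 1130.1 and 1092 CPM in CTX100 libraries 1 to 5 and at 917, 692, 954, 921 and 895 CPM in CTX140 libraries 1 to 5. Krt8 does not stand for all 13 carcinoma epithelium markers used, of which 10 had a log2 fold change above 0. Markers of fibroblasts, macrophages, T cells and adipocytes were also read in every library, so host cells contribute to each value. In bulk RNA, more cells of a type and more RNA per cell cannot be told apart. CPM are counts per 1000000 of the scaled library size.

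Cyclophosphamide is a prodrug. The liver oxidises it, and the product breaks down in cells to a mustard that crosslinks DNA strands. Aldehyde dehydrogenases divert the intermediate to an inactive acid, and glutathione transferases can conjugate the reactive products. Crosslinks stall replication and activate p53, and dividing lymphocytes are among the cells most sensitive to the drug. Cholesterol synthesis, which holds the most called genes of any gene list below, is set by the transcription factor Srebf2: when membranes are rich in sterol, Insig proteins retain it in the endoplasmic reticulum, and when sterol runs low it reaches the nucleus and switches on the genes of the pathway.

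Library totals were 15.9 to 19.3 in CTX100, 14.4 to 18.8 in CTX140 and 15.2 to 17.1 in PBS, in units of 1000000 counts. Whether the libraries of a group come from separate mice is not stated in the labels; the p-values therefore reflect only the spread among these libraries, which may be technical. CTX140 libraries were less alike than CTX100 libraries: the correlation of log2 CPM between library pairs ran from 0.926 to 0.979 within CTX140 and from 0.977 to 0.986 within CTX100. On the first principal component of the 10 libraries, which held 43.5% of the variance, CTX140 1 to 5 scored 84.8, 54.4, 15.2, -11.9 and -17.7, while CTX100 libraries scored from -40.5 to -9.57. CTX140 1 and CTX140 2 thus lay farthest from the CTX100 libraries, and CTX140 4 and 5 lay among them. The 2 lowest pair correlations were those of CTX140 1 with CTX140 5 and with CTX140 4, at 0.926 and 0.933, while CTX140 1 and CTX140 2 correlated at 0.964. CTX140 1 also had the highest share of mitochondrially encoded counts, 9.81%, where the CTX140 mean was 6.02 ± 2.23% (SD, n = 5) and the CTX100 mean 4.53 ± 1.52% (n = 5). Results are given with this library and also without it where leaving it out ended a call or moved a value by over 1.5 times.

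At the higher dose, 7 of 19 cholesterol synthesis genes and 3 of 21 mitosis genes were called lower. Called higher were 5 of 14 fibroblast markers, 2 of 13 complement genes and 2 of 20 tested genes of cyclophosphamide and oxidant detoxification. So were 2 of 22 inflammatory cytokines and chemokines and 2 of 23 genes of the type I interferon response. Of the 15360 genes, 192 were called, which is 1.25% (edgeR quasi-likelihood test, two-sided, adjusted p under 0.05). Of these, 119 (0.775%) were called higher and 73 (0.475%) lower in CTX140. A gene that passed the low-count filter through CTX140 alone could only be higher, so the 2 counts are not on equal terms. With any 1 library left out, 110 of the 119 higher and all 73 lower genes could still be tested. Adjusted p-values of the called genes lay between 0.0260 and 0.0499, close to the threshold, while 3430 genes, 22.3% of all, had an unadjusted p under 0.05. The median log2 fold change was 0.026 over all genes, 1.49 over the called higher genes and -0.60 over the called lower ones. A 2-fold change was exceeded by 95 of the 119 higher genes and by 3 of the 73 lower genes. The higher genes had a median level of 7.44 CPM over the CTX libraries and the lower genes one of 51.4 CPM. All 5 CTX140 libraries lay above all 5 CTX100 libraries in 95 of the 119 called higher genes, and in 358 of all genes (2.33%). They lay below all CTX100 libraries in 70 of the 73 called lower genes, and in 570 of all genes (3.71%).

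The number of calls depended on single libraries. Without CTX100 2, 3 or 4, or without CTX140 3, the same test called 0 genes, with 2659, 2852, 2895 and 3089 genes at an unadjusted p under 0.05. It called 1 gene without CTX100 1 and 1 without CTX140 2. It called 52 without CTX140 1, all of them among the 192, 162 without CTX100 5, 528 without CTX140 4 and 1007 without CTX140 5. DESeq2 on all libraries called 1250 genes, among them all 192. Each call below is subject to this limit. In simulated counts of the same depth, with 50 genes altered at each fold size, the test found 22% of 1.5-fold and 64% of 2-fold changes. The simulation gave each gene 1 spread for all groups and no shift of whole libraries. In the real counts the median SD of log2 values was 0.288 in CTX140 and 0.208 in CTX100, so these shares may not hold there.

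**Figure D1:**
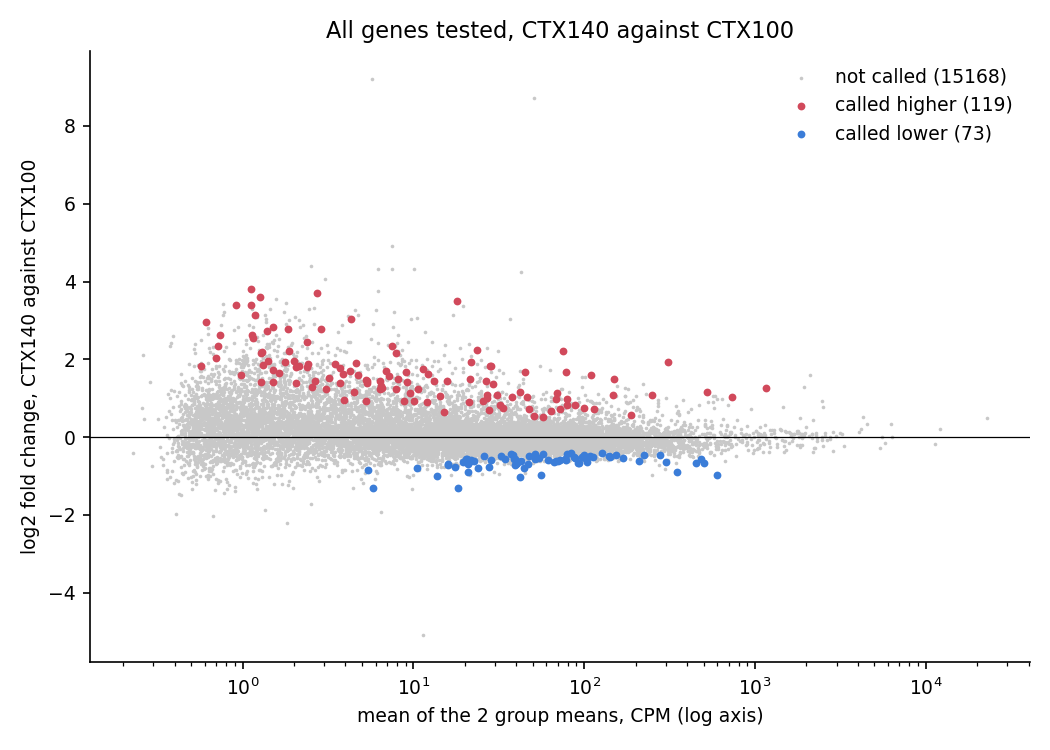
Log2 fold change of CTX140 against CTX100 (vertical axis) against mean CPM (horizontal log axis) for the 15360 genes tested, 1 point per gene. The 119 genes called higher (red) sit mostly at low CPM with large fold changes, and the 73 called lower (blue) at higher CPM with small ones.

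Cholesterol synthesis held the most calls of any list: 7 of its 19 genes fell in CTX140, none rose, and 18 of 19 had a log2 fold change below 0. The median over the list was -0.61, beside 0.026 over all genes, and 9 of the 19 had groups that did not overlap. Over all genes tested, 0.475% were called lower and 3.71% lay lower without overlap. The summed CPM of the list was 518, 635, 691, 622 and 487 in CTX100 1 to 5 and 413, 333, 381, 428 and 387 in CTX140 1 to 5, so every CTX140 library lay below every CTX100 library. In PBS it ranged from 696 to 1017. Without CTX140 1, 3 of the 19 genes were called lower and the median was -0.52. Summed CPM of the 13 carcinoma epithelium markers ranged from 1799 to 2184 in CTX100 and from 1289 to 2020.3 in CTX140, lowest in CTX140 2. Most of this sum came from Krt8 (means of 1104 CPM in CTX100 and 876 CPM in CTX140) and Krt18 (790 and 656 CPM). Of the 13 markers, 10 had a log2 fold change above 0, so the sum does not speak for the list. The part of the carcinoma cells' share in the cholesterol result was not tested.

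Promoter sequences are shown for 3 called genes of this list. They are Idi1 and Insig1, among the called genes with the smallest p, and Hmgcs1, which was picked after its sequence was searched. The sequences run from 250 bases before to 50 after the start site, from RefSeq on GRCm38.p6. Capitals mark matches, on either strand, to the sterol regulatory element TCACNCCAC, where Srebf2 can bind, and to ATTGG, the inverted CCAAT box, where its partner NF-Y can bind. The Idi1 window is chr13:8885356-8885655, plus strand, with 2 ATTGG matches.
Idi1: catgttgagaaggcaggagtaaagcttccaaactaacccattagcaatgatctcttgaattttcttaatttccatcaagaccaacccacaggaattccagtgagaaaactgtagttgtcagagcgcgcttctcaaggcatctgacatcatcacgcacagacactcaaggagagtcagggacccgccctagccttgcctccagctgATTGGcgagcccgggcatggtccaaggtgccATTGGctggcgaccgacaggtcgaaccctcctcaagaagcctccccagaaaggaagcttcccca
The Insig1 window is chr5:28071162-28071461, plus strand, with 1 ATTGG match.
Insig1: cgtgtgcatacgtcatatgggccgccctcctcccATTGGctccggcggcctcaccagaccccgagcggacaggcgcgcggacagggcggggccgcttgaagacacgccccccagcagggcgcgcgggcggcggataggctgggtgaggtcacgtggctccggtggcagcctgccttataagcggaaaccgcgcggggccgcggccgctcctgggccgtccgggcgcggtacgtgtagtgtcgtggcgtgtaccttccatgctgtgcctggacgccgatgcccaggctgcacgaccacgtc
The Hmgcs1 window is chr13:119690101-119690400, plus strand, with 4 ATTGG matches and 1 match to the sterol element, read TCACCCCAC and starting 137 bases upstream.
Hmgcs1: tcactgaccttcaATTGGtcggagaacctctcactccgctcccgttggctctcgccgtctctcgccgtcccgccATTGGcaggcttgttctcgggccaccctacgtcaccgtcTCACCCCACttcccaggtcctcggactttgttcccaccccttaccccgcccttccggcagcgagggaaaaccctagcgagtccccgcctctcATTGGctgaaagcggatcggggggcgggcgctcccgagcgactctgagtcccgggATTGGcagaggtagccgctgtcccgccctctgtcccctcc
Of the 19 genes of the list, 11 had 14 promoters in the RefSeq table. The sterol element letters were found in 1 of these 14 promoters and in 408 of all 32851 (1.24%). ATTGG was found in 11 of the 14 and in 12289 of all (37.4%). No match overlapped another in the 3 windows printed. A match only describes the letters of a window.

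Within the pathway, the early steps were represented by Hmgcs1 and Idi1. Hmgcs1, which makes the precursor HMG-CoA (chromosome 13, 119690379 to 119708260, mm10), was read at 42.4, 49.7, 65.0, 60.9 and 41.2 CPM in CTX100 1 to 5 and 37.3, 33.8, 36.1, 29.5 and 32.9 CPM in CTX140 1 to 5. Every CTX140 library lay below every CTX100 library, with a log2 fold change of -0.61 ± 0.14 (SE, edgeR adjusted p = 0.0420), but without CTX140 1 the gene was not called (adjusted p = 0.0605). Idi1, the isomerase of isopentenyl diphosphate (chromosome 13, 8885501 to 8892451), was read at 6.58, 8.78, 11.4, 8.63 and 6.12 CPM in CTX100 and 5.51, 2.91, 2.33, 3.07 and 2.84 CPM in CTX140. All CTX140 libraries lay below the CTX100 range, CTX140 1 closest to it, with a log2 fold change of -1.32 ± 0.26 (SE, edgeR adjusted p = 0.0294), and without CTX140 1 the log2 fold change was -1.57 (adjusted p = 0.0242).

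Among the later steps, Cyp51, the lanosterol demethylase (chromosome 5, 4081145 to 4104746), fell from 22.1, 31.7, 40.4, 33.5 and 23.6 CPM in CTX100 1 to 5 to 20.1, 16.5, 17.7, 16.6 and 16.0 CPM in CTX140 1 to 5. The groups did not overlap, with a log2 fold change of -0.80 ± 0.18 (SE, edgeR adjusted p = 0.0402); its reads cannot be told apart from those of the overlapping Akap9 on the other strand. Cyp51 lost its call without CTX140 1 (adjusted p = 0.0595). The squalene genes Fdft1 and Sqle missed the threshold, at log2 fold changes of -0.65 ± 0.16 (adjusted p = 0.0549) and -0.61 ± 0.17 (adjusted p = 0.0692). The only member above 0 was Mvd, the mevalonate diphosphate decarboxylase, at 0.11 ± 0.17 (adjusted p = 0.759), or 0.019 without CTX140 1.

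Among the regulators, Insig1 and Srebf2 fell. Insig1, itself a target of the factor it restrains (chromosome 5, 28071363 to 28078662), was read at 22.9, 35.9, 32.3, 26.6 and 18.7 CPM in CTX100 1 to 5 and 17.0, 15.6, 14.1, 12.2 and 14.7 CPM in CTX140 1 to 5. It fell without overlap, with a log2 fold change of -0.89 ± 0.16 (SE, edgeR adjusted p = 0.0260). Srebf2, the transcription factor of the pathway (chromosome 15, 82147181 to 82205379), was read at 81.7, 95.8, 89.8, 76.5 and 62.8 CPM in CTX100 and 62.4, 42.4, 51.2, 56.4 and 46.7 CPM in CTX140. CTX140 1, at the top of its group, lay just under the lowest CTX100 library, and the gene fell with a log2 fold change of -0.65 ± 0.15 (SE, edgeR adjusted p = 0.0420). With CTX140 1 left out, Insig1 kept its call (adjusted p = 0.0435) and Srebf2 did not (adjusted p = 0.0521).

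Each dose was also set against PBS in the same fit, which shares libraries with the dose comparison. Against PBS the log2 fold change of Insig1 was -0.72 (adjusted p = 0.0434) at CTX100 and -1.61 (adjusted p = 4.84e-05) at CTX140. For Idi1 it was -0.59 (adjusted p = 0.253) at CTX100 and -1.91 (adjusted p = 0.000371) at CTX140, and for Cyp51 -0.88 (adjusted p = 0.0271) at CTX100 and -1.68 (adjusted p = 6.48e-05) at CTX140. Fatty acid synthesis, whose main regulator is the related factor Srebf1, had 0 of 12 genes called and a median of -0.036, with 7 of 12 genes below 0; without CTX140 1 these were -0.20 and 9 of 12. Its members spread widely, from Fads2, a desaturase of polyunsaturated fatty acids, at -1.04 ± 0.26 (adjusted p = 0.0544), to Scd1, the stearoyl-CoA desaturase, at 1.37 ± 0.46 (adjusted p = 0.112). Scd1 was read at 153, 123, 186, 69.9 and 86.7 CPM in CTX100 1 to 5 and 801, 346, 198, 146 and 105 CPM in CTX140 1 to 5. Its groups overlapped, CTX140 1 was far the highest, and without that library the log2 fold change was 0.69.

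Genes of mitosis were the other list with several lower calls. Of its 21 genes 3 fell, none rose, all 21 had a log2 fold change below 0, and the median was -0.40, beside 0.475% of all genes called lower. Summed CPM was 2611, 2528, 2879, 2582 and 2515 in CTX100 1 to 5 and 1547, 1825, 2084, 1938 and 2459 in CTX140 1 to 5, without overlap; in PBS it ranged from 1661 to 2089. CTX140 1 was the lowest library, and without it no member was called and the median was -0.33. Cenpf, a kinetochore protein (chromosome 1, 189640606 to 189688086), was read at 121, 107, 119, 114 and 112 CPM in CTX100 and 56.7, 64.7, 74.6, 74.0 and 91.0 CPM in CTX140. It fell without overlap, with a log2 fold change of -0.67 ± 0.13 (SE, edgeR adjusted p = 0.0284). Bub1b, a kinase of the spindle checkpoint, was read at 89.1, 82.1, 99.5, 84.0 and 75.5 CPM in CTX100 and 45.4, 58.6, 63.1, 55.3 and 64.1 CPM in CTX140. It too fell without overlap, with a log2 fold change of -0.59 ± 0.12 (SE, edgeR adjusted p = 0.0358). Nusap1, a spindle protein whose reads cannot be told apart from those of the overlapping Oip5, fell with a log2 fold change of -0.56 ± 0.12 (SE, edgeR adjusted p = 0.0384). The adjusted p without CTX140 1 was 0.0557 for Cenpf, 0.0639 for Bub1b and 0.0605 for Nusap1. Against PBS, the log2 fold change of Bub1b was 0.64 (adjusted p = 0.0268) at CTX100 and 0.056 (adjusted p = 0.789) at CTX140. For this gene CTX140 libraries thus lay near PBS and CTX100 libraries above it. For Cenpf the values were 0.32 (adjusted p = 0.231) at CTX100 and -0.35 (adjusted p = 0.0780) at CTX140. For Nusap1 they were 0.39 (adjusted p = 0.121) and -0.17 (adjusted p = 0.349), so neither gene passed the test against PBS at either dose. The proliferation marker Mki67 did not pass the test, at -0.45 ± 0.15 (adjusted p = 0.0965).

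DNA replication had 0 of 21 genes called, a median of -0.21 and 19 of 21 genes below 0. Crosslink and recombination repair had 1 of 20 genes called, Ercc1, and a median of -0.13, beside 0.475% of all genes called lower. Ercc1, a subunit of the nuclease that cuts beside crosslinks, was read at 91.7, 110.2, 91.9, 114 and 101 CPM in CTX100 1 to 5 and 62.7, 65.8, 74.5, 74.6 and 78.7 CPM in CTX140 1 to 5. It fell without overlap, with a log2 fold change of -0.51 ± 0.11 (SE, edgeR adjusted p = 0.0384), and reads of the overlapping Cd3eap on the other strand cannot be separated from it. Its adjusted p without CTX140 1 was 0.0768, which left the list with no call. Further DNA genes outside the lists, chosen after their values were seen, were also called lower. Usp1, a deubiquitinase of the Fanconi anaemia pathway, was read at 107, 119, 121, 110.5 and 113 CPM in CTX100 and 77.8, 87.0, 80.5, 75.7 and 79.5 CPM in CTX140. It had a log2 fold change of -0.51 ± 0.090 (adjusted p = 0.0260). Uhrf1, which maintains DNA methylation at replication, stood at -0.55 ± 0.11 (adjusted p = 0.0284). The groups of both genes did not overlap, and without CTX140 1 Usp1 kept its call (adjusted p = 0.0449) while Uhrf1 lost it (adjusted p = 0.0595).

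Several of the lowest fold changes among called genes belonged to genes of none of the lists. Odc1, the first enzyme of polyamine synthesis, was read at 371, 553, 510.3, 408 and 415 CPM in CTX100 1 to 5 and 166, 229.7, 256, 309 and 256 CPM in CTX140 1 to 5, and fell without overlap, with a log2 fold change of -0.89 ± 0.17 (SE, edgeR adjusted p = 0.0284). H1f0, a linker histone, was read at 740.4, 776, 890.2, 926 and 616 CPM in CTX100 and 314, 274, 497, 396 and 527 CPM in CTX140, with a log2 fold change of -0.98 ± 0.18 (SE, edgeR adjusted p = 0.0260). Its groups did not overlap, and against PBS its log2 fold change was 0.0018 (adjusted p = 0.998) at CTX100 and -0.97 (adjusted p = 0.00235) at CTX140. Sema4c, a semaphorin whose locus overlaps D430040D24Rik on the other strand, was read at 68.5, 64.4, 49.1, 54.1 and 44.7 CPM in CTX100 and 21.0, 20.2, 27.4, 29.8 and 39.1 CPM in CTX140. It fell without overlap, with a log2 fold change of -1.03 ± 0.18 (SE, edgeR adjusted p = 0.0260). The transcription regulators Eya1 and Dlx1, the latter overlapped by Dlx1as, fell with log2 fold changes of -0.99 ± 0.19 (adjusted p = 0.0294) and -0.84 ± 0.19 (adjusted p = 0.0402), again without overlap. Odc1, H1f0 and Sema4c stayed called without CTX140 1, with adjusted p at most 0.0491, whereas Eya1 (adjusted p = 0.0521) and Dlx1 (adjusted p = 0.0735) did not.

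**Figure D2:**
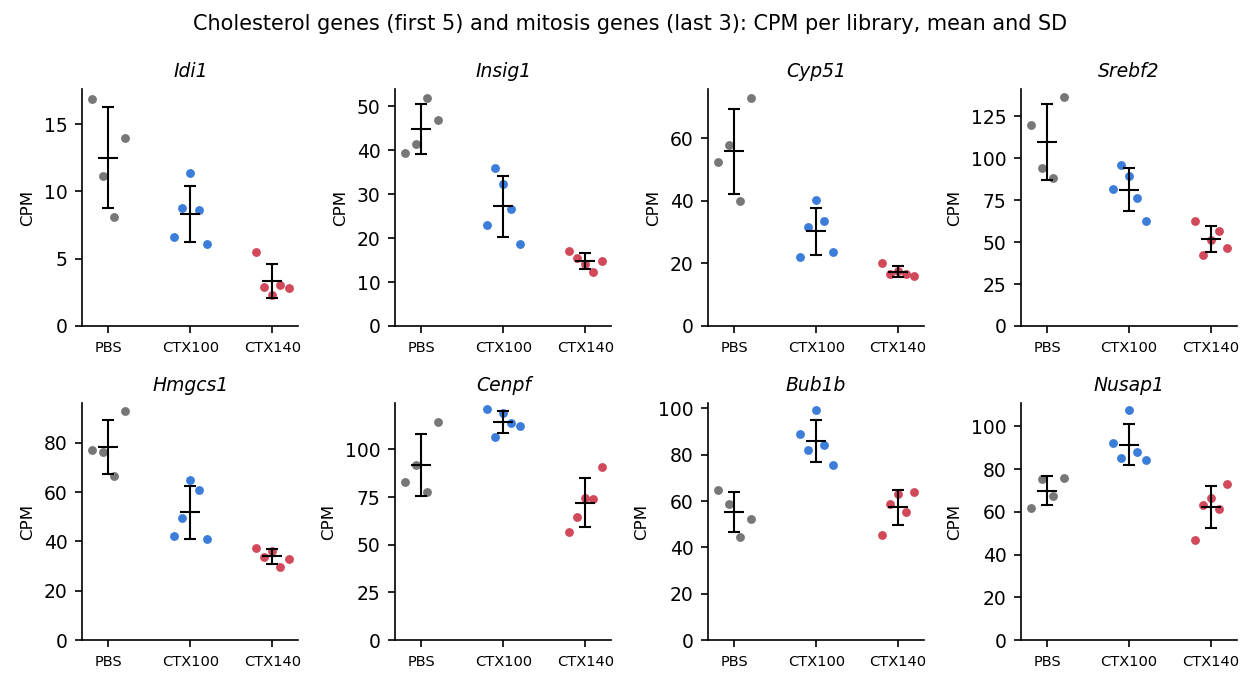
CPM (linear axis from 0) in each library for 5 genes of cholesterol synthesis and 3 of mitosis, with the mean and SD of each group (PBS, n = 4; CTX100 and CTX140, n = 5). In each of the 8 panels every CTX140 point lies below every CTX100 point.

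Fibroblast genes led the higher calls. Of 14 fibroblast markers 5 rose, none fell, 13 had a log2 fold change above 0, and the median was 1.08, beside 0.775% of all genes called higher. Summed CPM was 2584, 1905, 2549, 1790.4 and 1542 in CTX100 1 to 5 and 3465, 7428, 4051, 4334 and 2639.5 in CTX140 1 to 5, with CTX140 2 highest and no overlap; in PBS it ranged from 951 to 1500.0. Without CTX140 1, 2 of the 14, Fap and Mfap5, were called and the median was 1.14. Fap, a surface protease of activated fibroblasts (chromosome 2, 62500943 to 62574075), was read at 3.20, 2.75, 3.86, 4.09 and 4.70 CPM in CTX100 1 to 5 and 7.97, 12.8, 10.7, 8.47 and 5.94 CPM in CTX140 1 to 5. Its groups did not overlap, and it rose with a log2 fold change of 1.30 ± 0.24 (SE, edgeR adjusted p = 0.0262), while against PBS its log2 fold change was 0.086 (adjusted p = 0.903) at CTX100 and 1.39 (adjusted p = 0.00218) at CTX140. Col3a1, a fibrillar collagen, was read at 812, 509, 967, 615 and 489 CPM in CTX100 and 1108, 2791, 1595, 1701 and 973 CPM in CTX140. It rose, just without overlap, with a log2 fold change of 1.27 ± 0.28 (SE, edgeR adjusted p = 0.0434). Dcn, the proteoglycan decorin, was read at 157, 126, 180.2, 141 and 188 CPM in CTX100 and 309.5, 572, 344, 274 and 194 CPM in CTX140, with a log2 fold change of 1.09 ± 0.24 (SE, edgeR adjusted p = 0.0402). The microfibril gene Mfap5 rose with a log2 fold change of 1.02 ± 0.22 (SE, edgeR adjusted p = 0.0384), and Pi16, which marks adventitial fibroblasts, with 1.68 ± 0.38 (adjusted p = 0.0496). Without that library the adjusted p was 0.0576 for Col3a1, 0.0639 for Dcn and 0.0605 for Pi16. Col3a1 and Pi16 were named after their values were seen.

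Among matrix genes, the collagen and fibrillar list had 1 of 16 genes called and a median of 0.38, and the crosslinking and remodelling list 1 of 16 and a median of -0.0091, or 0.075 without CTX140 1. The share called higher over all genes was 0.775%. The called members were Col14a1 and Loxl1, and without CTX140 1 neither was called (adjusted p = 0.0648 and 0.0595). Loxl1, which crosslinks elastin, was read at 29.4, 24.7, 27.4, 23.2 and 19.7 CPM in CTX100 1 to 5 and 38.5, 80.7, 52.1, 53.1 and 29.9 CPM in CTX140 1 to 5, and rose without overlap, with a log2 fold change of 1.03 ± 0.24 (SE, edgeR adjusted p = 0.0461). Col14a1, a fibril-associated collagen overlapped by Gm18787, rose with a log2 fold change of 1.45 ± 0.31 (SE, edgeR adjusted p = 0.0402), and its groups overlapped. The basement membrane collagens did not pass the test: Col4a1 and Col4a2 had log2 fold changes of -0.25 ± 0.14 (adjusted p = 0.312) and -0.23 ± 0.19 (adjusted p = 0.507). Other stromal genes, chosen after their values were seen, were called higher. Cxcl12, a chemokine of stromal cells, was read at 42.1, 18.5, 31.2, 18.3 and 22.4 CPM in CTX100 and 142, 238, 129.7, 65.4 and 38.7 CPM in CTX140, with a log2 fold change of 2.21 ± 0.50 (SE, edgeR adjusted p = 0.0476). CTX140 5 lay within the CTX100 range. Ccl11, the eosinophil attractant eotaxin, rose with a log2 fold change of 1.83 ± 0.34 (SE, edgeR adjusted p = 0.0283), as did the matrix protein Svep1, with a log2 fold change of 1.62 ± 0.25 (SE, edgeR adjusted p = 0.0260). Svep1 kept its call without CTX140 1 (log2 fold change 1.69, adjusted p = 0.0242). Adamts5, a protease of proteoglycans, rose with 1.44 ± 0.31 (adjusted p = 0.0384), and against PBS its log2 fold change was 2.56 (adjusted p = 0.0120) at CTX100 and 3.99 (adjusted p = 3.86e-05) at CTX140. The calls of Cxcl12 (adjusted p = 0.0982), Ccl11 (adjusted p = 0.0577) and Adamts5 (adjusted p = 0.0659) were lost without CTX140 1.

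Complement genes had 2 of 13 members called higher, none lower, 12 of 13 above 0 and a median of 0.95, beside 0.775% of all genes called higher. Summed CPM was 1162, 1036, 928, 894 and 833 in CTX100 1 to 5 and 2029, 2868, 1789, 1554 and 1178 in CTX140 1 to 5. The groups did not overlap, with CTX140 5 just above the highest CTX100 library. C3, the central component of the cascade (chromosome 17, 57203970 to 57228136), was read at 372, 362, 293, 341 and 236 CPM in CTX100 and 944, 877, 665, 651 and 461 CPM in CTX140. The lowest CTX140 library lay above the highest CTX100 library, with a log2 fold change of 1.17 ± 0.27 (SE, edgeR adjusted p = 0.0487). Serping1, the inhibitor of the first complement proteases (chromosome 2, 84765387 to 84775444), was read at 91.2, 76.4, 71.4, 71.3 and 79.0 CPM in CTX100 and 175, 415, 216, 166 and 133 CPM in CTX140. Here too the groups did not overlap, with a log2 fold change of 1.504 ± 0.26 (SE, edgeR adjusted p = 0.0260). Leaving out CTX140 1 kept the call of Serping1 (adjusted p = 0.0435) and ended that of C3 (adjusted p = 0.0996). Fibroblasts also express both genes, and the summed CPM of the fibroblast markers was also higher in CTX140 as a group. Within CTX140 that sum was highest in CTX140 2, as was Serping1, whereas C3 was highest in CTX140 1. The part of fibroblasts in the complement result was not tested.

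Acute phase and lipid-binding genes outside the lists, chosen after their values were seen, were among the called genes. Saa3, an acute phase apolipoprotein with near-copies, was read at 139, 91.8, 131, 110.0 and 164 CPM in CTX100 1 to 5 and 152, 593, 534, 666 and 498 CPM in CTX140 1 to 5. CTX140 1 lay within the CTX100 range and the other 4 libraries at least 498 CPM, with a log2 fold change of 1.94 ± 0.33 (SE, edgeR adjusted p = 0.0260); without that library these were 2.17 and 0.000299. Hp, which encodes haptoglobin, was read at 91.4, 89.3, 122, 82.5 and 88.3 CPM in CTX100 and 176, 229, 189, 216 and 197 CPM in CTX140. It rose without overlap, with a log2 fold change of 1.09 ± 0.18 (SE, edgeR adjusted p = 0.0260), and is among the calls kept without CTX140 1 (adjusted p = 0.0347). Serpina3n, a protease inhibitor of a multigene family, and Apod, a lipocalin, rose with log2 fold changes of 1.83 ± 0.38 (adjusted p = 0.0384) and 1.94 ± 0.38 (adjusted p = 0.0297). Gpx3, the secreted glutathione peroxidase, was read at 56.5, 49.3, 87.0, 41.0 and 37.5 CPM in CTX100 and 196, 281, 148, 99.9 and 97.3 CPM in CTX140, without overlap, with a log2 fold change of 1.60 ± 0.30 (SE, edgeR adjusted p = 0.0294). When CTX140 1 was left out, Apod stayed called (adjusted p = 0.0460), and Serpina3n (adjusted p = 0.0659) and Gpx3 (adjusted p = 0.0595) did not.

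**Figure D3:**
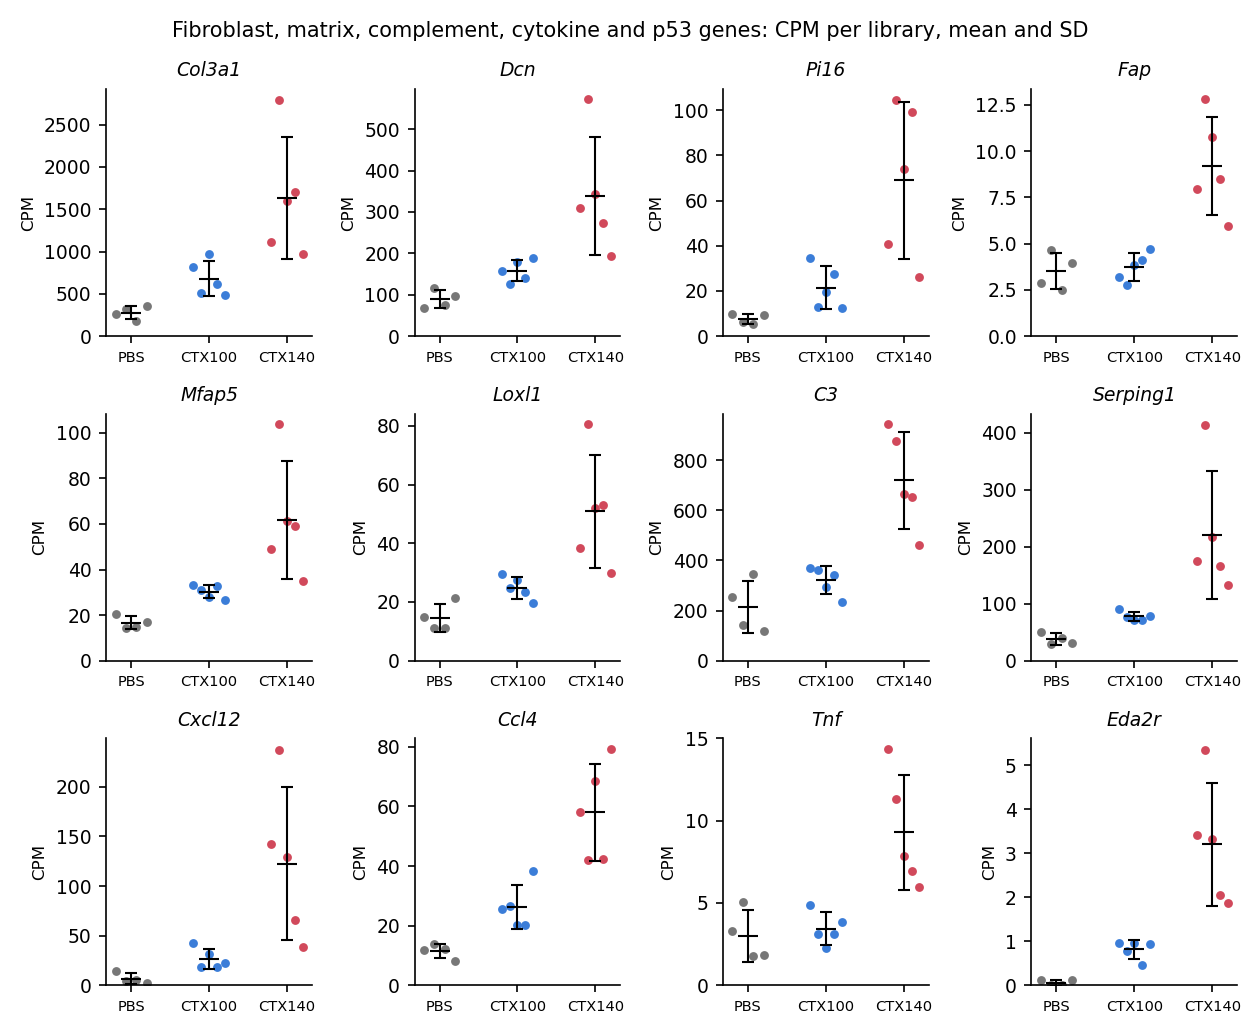
CPM (linear axis from 0) in each library for 12 called higher genes of fibroblasts, matrix, complement, cytokine signalling and the p53 response, with the mean and SD of each group (PBS, n = 4; CTX100 and CTX140, n = 5). In 10 of the 12 panels every CTX140 point lies above every CTX100 point; in Pi16 and Cxcl12 the groups overlap.

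Of the 22 inflammatory cytokines and chemokines, 2 rose, none fell, 21 had a log2 fold change above 0, and the median was 0.50. Among all genes tested, 0.775% were called higher and 53.4% had a log2 fold change above 0. Ccl4, a chemokine of myeloid and cytotoxic cells, was read at 25.5, 26.6, 20.2, 20.2 and 38.4 CPM in CTX100 1 to 5 and 58.2, 42.1, 68.4, 42.3 and 79.4 CPM in CTX140 1 to 5. It rose without overlap, with a log2 fold change of 1.15 ± 0.21 (SE, edgeR adjusted p = 0.0260), and kept its call without CTX140 1 (adjusted p = 0.0460). Tnf, the inflammatory cytokine (chromosome 17, 35199381 to 35202007), was read at 4.89, 3.11, 2.25, 3.12 and 3.84 CPM in CTX100 and 14.4, 11.3, 7.85, 6.97 and 5.94 CPM in CTX140. All CTX140 values exceeded all CTX100 values, with a log2 fold change of 1.43 ± 0.32 (SE, edgeR adjusted p = 0.0420), and without CTX140 1 its adjusted p was 0.0920. Against PBS the log2 fold change of Tnf was 0.21 (adjusted p = 0.807) at CTX100 and 1.64 (adjusted p = 0.00474) at CTX140. The cytokine genes Il1b and Il6 did not pass, at log2 fold changes of 0.20 ± 0.25 (adjusted p = 0.679) and 0.26 ± 0.46 (adjusted p = 0.785), the latter 0.48 without CTX140 1. Ccl17, a T cell attractant made by dendritic cells, was the only call in the dendritic cell list of 10 tested genes. It was read at 4.04, 3.88, 2.25, 1.49 and 2.91 CPM in CTX100 and 109, 26.6, 18.2, 5.60 and 4.55 CPM in CTX140, without overlap, with a log2 fold change of 3.49 ± 0.75 (SE, edgeR adjusted p = 0.0409). The value of CTX140 1 was the highest, and without it the gene stood at 2.24 (adjusted p = 0.0580).

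The type I interferon response had 2 of 23 genes called higher, Ifit2 and Ifit3, none lower, all 23 above 0 and a median of 0.49. The shares over all genes were 0.775% called higher and 53.4% above 0. Summed CPM was 2781, 2436, 2320.0, 2575 and 3253 in CTX100 1 to 5 and 2955, 3554, 3893, 3449 and 4828 in CTX140 1 to 5, with CTX100 5 inside the CTX140 range; in PBS it ranged from 1285 to 1874. Ifit3, an antiviral protein whose reads may be shared with its near-copy Ifit3b, was read at 50.4, 52.6, 49.6, 55.4 and 77.2 CPM in CTX100 and 85.6, 94.8, 104, 84.2 and 139 CPM in CTX140. It rose without overlap, with a log2 fold change of 0.83 ± 0.19 (SE, edgeR adjusted p = 0.0408). Ifit2, of the same family, rose with a log2 fold change of 0.72 ± 0.16 (SE, edgeR adjusted p = 0.0408), and its groups overlapped through CTX140 4. Mx1, an antiviral GTPase, missed the threshold at 0.72 ± 0.18 (adjusted p = 0.0558). Against PBS the log2 fold change of Ifit3 was 1.20 (adjusted p = 0.0164) at CTX100 and 2.04 (adjusted p = 4.01e-05) at CTX140. Without CTX140 1 neither Ifit3 (adjusted p = 0.0590) nor Ifit2 (adjusted p = 0.0607) was called, and the list median was 0.55. The interferon gamma response had 0 of 17 genes called, all 17 above 0 and a median of 0.39.

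The lists of the DNA damage and drug response held 1 or 2 called genes each. The share of all genes called higher, to set beside each list here, was 0.775%. Of 22 p53 targets 1 was called, Eda2r, and the median was 0.36. Eda2r, a receptor of the TNF family (chromosome X, 97333840 to 97377216), was read at 0.121, 0, 0 and 0.110 CPM in PBS 1 to 4, 0.965, 0.777, 0.952, 0.454 and 0.928 CPM in CTX100 1 to 5 and 3.42, 5.35, 3.31, 2.05 and 1.87 CPM in CTX140 1 to 5. The 3 groups did not overlap, and CTX140 was higher than CTX100 with a log2 fold change of 1.96 ± 0.41 (SE, edgeR adjusted p = 0.0347); the call was lost without CTX140 1 (adjusted p = 0.0580). Cdkn1a, the p53-induced cell cycle inhibitor, and Mdm2, the ligase that degrades p53, did not pass, at 0.44 ± 0.17 (adjusted p = 0.142) and 0.18 ± 0.089 (adjusted p = 0.259). Of 20 tested genes of cyclophosphamide and oxidant detoxification, 2 rose, none fell, 18 were above 0 and the median was 0.40. Gstt1, a glutathione transferase of the same family as Gstt2, was read at 3.02, 2.33, 3.56, 3.31 and 3.90 CPM in CTX100 and 17.4, 14.4, 8.71, 6.01 and 6.16 CPM in CTX140. Its groups did not overlap, with a log2 fold change of 1.71 ± 0.32 (SE, edgeR adjusted p = 0.0260). Mgst1, the microsomal transferase, was read at 77.2, 68.5, 71.1, 71.3 and 87.3 CPM in CTX100 and 102, 169, 119, 106 and 131 CPM in CTX140. It also rose without overlap, with a log2 fold change of 0.74 ± 0.15 (SE, edgeR adjusted p = 0.0294), and both transferases kept their calls without CTX140 1 (adjusted p = 0.0489 and 0.0435). The aldehyde dehydrogenase Aldh1a1, which can inactivate the drug's intermediate, had a log2 fold change of 2.09 ± 0.61 that did not pass (adjusted p = 0.0757). Among 16 genes of unfolded protein stress and amino acid shortage 1 was called, Herpud1, a protein of endoplasmic reticulum degradation, with a log2 fold change of 0.53 ± 0.12 (SE, edgeR adjusted p = 0.0420), but not without CTX140 1 (adjusted p = 0.0605).

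The 10 highest fold changes among called protein-coding genes of at least 1 CPM were found mostly in genes read at around 1 CPM or less in CTX100. Ces1d, a carboxylesterase, was read at 0.362, 0.179, 0.0501, 0 and 0.124 CPM in CTX100 1 to 5 and 5.39, 2.67, 0.981, 0.137 and 1.23 CPM in CTX140 1 to 5, with a log2 fold change of 3.81 ± 0.90 (SE, edgeR adjusted p = 0.0499). CTX140 4 lay within the CTX100 range. Dmbt1, a mucosal scavenger protein whose locus overlaps Fgfr2, was read at 0.784, 0.299, 0.601, 0.130 and 0.0619 CPM in CTX100 and 17.0, 1.43, 3.37, 0.751 and 2.78 CPM in CTX140, with a log2 fold change of 3.71 ± 0.82 (SE, edgeR adjusted p = 0.0431). Wfdc18, a secreted protein of mammary tissue, was read at 0.905, 0.478, 1.45, 0.390 and 1.36 CPM in CTX100 and 17.9, 6.83, 5.15, 5.53 and 2.89 CPM in CTX140. It rose without overlap, with a log2 fold change of 3.04 ± 0.53 (SE, edgeR adjusted p = 0.0260), and without CTX140 1 at a log2 fold change of 2.45 (adjusted p = 0.0435). Mme, the surface peptidase neprilysin, was read at 0.603, 0.836, 0.902, 0.454 and 0.804 CPM in CTX100 and 12.9, 4.46, 3.07, 3.14 and 1.55 CPM in CTX140, with a log2 fold change of 2.78 ± 0.54 (SE, edgeR adjusted p = 0.0284). The others were Cldn10, a tight junction protein, at 3.59 ± 0.76 (adjusted p = 0.0384), Ccl17 described above, and Ces2g, a second carboxylesterase, at 3.41 ± 0.71 (adjusted p = 0.0357). Clca1, a secreted regulator of chloride channels, stood at 3.14 ± 0.71 (adjusted p = 0.0420), Akr1c14, a steroid dehydrogenase, at 2.84 ± 0.59 (adjusted p = 0.0347), and Fmo1, a monooxygenase, at 2.78 ± 0.62 (adjusted p = 0.0411). CTX140 1 had the highest value of its group in each of these 10 genes. Without it, Ces1d, Cldn10, Ces2g and Clca1 fell under the low-count filter and could not be tested, Mme kept its call (adjusted p = 0.0491), and Dmbt1 stood at a log2 fold change of 2.43 (adjusted p = 0.0680). Akr1c14 (adjusted p = 0.0605), Fmo1 (adjusted p = 0.0869) and Ccl17 were not called without it either. Reads of Ces1d, Ces2g and Akr1c14 may be shared with other members of their families. Ces1d, Cldn10, Ces2g and Clca1 passed the low-count filter only with CTX140 1 included. Dmbt1 was read at no more than 0.784 CPM in CTX100. Whether Dmbt1, Wfdc18, Mme or the others of these 10 genes passed the filter through CTX140 alone was not tested. A gene that passes through its CTX140 values alone can only come out higher there, so the adjusted p of such a gene adds no support.

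No gene was called in 30 of the 43 lists, whose medians nevertheless ranged widely. All 13 T cell genes had log2 fold changes above 0, with a median of 1.87 that was 0.76 without CTX140 1. Their summed CPM was 98.6, 83.8, 86.5, 105 and 142 in CTX100 1 to 5 and 1066, 330.2, 162, 115 and 106 in CTX140 1 to 5, so that only CTX140 1, 2 and 3 exceeded every CTX100 library. Cd8a, a coreceptor of cytotoxic T cells, did not pass the test, at 1.54 ± 0.50 (adjusted p = 0.104), or 0.78 without CTX140 1. All 11 tested adipocyte genes lay above 0, with a median of 1.82 and a summed CPM of 70.7 to 266 in CTX100 and 154 to 1006 in CTX140. The macrophage markers had a median of 0.73, with a sum of 1423 to 2954 in CTX100 and 1885 to 12839.9 in CTX140. Apoe, a lipid carrier of macrophages, was read at 1321, 1270.3, 1241, 658 and 728 CPM in CTX100 and 3862, 8177, 1943, 1013 and 869.7 CPM in CTX140, with a log2 fold change of 1.60 ± 0.53 (SE, edgeR adjusted p = 0.108). Class II antigen presentation had 9 of 9 genes above 0 and a median of 0.90, while class I had 13 genes at a median of 0.094.

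**Figure D4:**
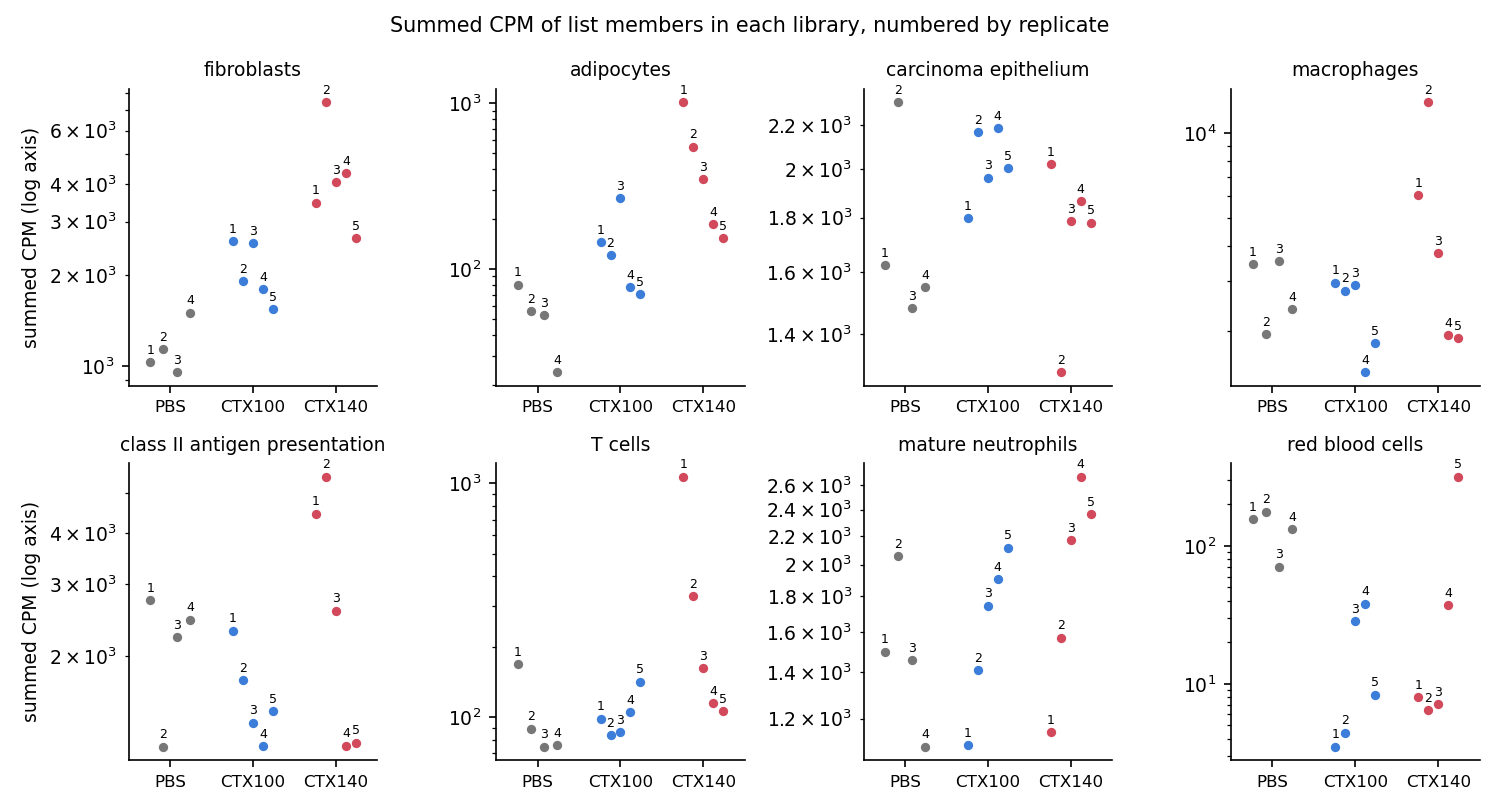
Summed CPM of the members of 8 lists in each library (log axis), grouped by treatment, each point numbered by its replicate. CTX140 1 has the highest T cell and adipocyte sums and CTX140 2 the highest fibroblast, macrophage and class II sums, while CTX140 4 and 5 lie within or close to the CTX100 points in most panels.

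Of the 13 carcinoma epithelium markers none was called, 10 had a log2 fold change above 0 and 3 below, and the median was 0.92, or 0.49 without CTX140 1. The keratin genes Krt8 and Krt18 had log2 fold changes of -0.33 ± 0.13 (adjusted p = 0.150) and -0.27 ± 0.16 (adjusted p = 0.330). Epcam, an epithelial adhesion protein, was read at 2.78, 1.91, 6.41, 1.23 and 3.09 CPM in CTX100 1 to 5 and 61.9, 9.98, 9.32, 12.6 and 7.55 CPM in CTX140 1 to 5, which missed the threshold at 2.70 ± 0.67 (adjusted p = 0.0558) although the groups did not overlap. CTX140 1 was far the highest, and without it the log2 fold change of Epcam was 1.66. The basal keratin gene Krt5, from the skin keratinocyte list, also missed the threshold, at 3.14 ± 0.76 (adjusted p = 0.0534), with groups that did not overlap. The list of hypoxia and glycolysis had 0 of 20 genes called, all 20 below 0 and a median of -0.34, or -0.23 without CTX140 1. Its sum was 6339, 9225, 10974, 11534 and 10538 CPM in CTX140 1 to 5, lowest in CTX140 1, and 10925 to 13157 CPM in CTX100. The nuclear respiratory chain list had a median of -0.059 (-0.027 without CTX140 1), immediate early genes one of 0.10 and TGF-beta and EMT genes one of -0.0033 (0.028 without it), with no call in any.

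In the other lists without a call, several medians fell by over 1.5 times when CTX140 1 was left out. Regulatory T cells had a median of 1.00 with that library and 0.22 without it; their summed CPM was 115, 37.7, 26.9, 21.9 and 19.1 in CTX140 1 to 5. The median of B cells and plasma cells was 2.39 with it and 0.44 without it, that of cytotoxic and NK cells 1.07 and 0.69, and that of blood endothelium 0.75 and 0.46. Monocytes stood at 0.51 with it and 0.29 without it, mast cells at 1.08 and 0.71, immune checkpoints at 0.57 and 0.37, and Schwann cells at 0.082 and 0.018. The median moved by less than that for pericytes and smooth muscle (0.75), mature neutrophils (0.29), granulocyte precursors (0.90), hormone receptors and milk genes (0.62), osteopontin and bone matrix (-0.26), platelets (0.66) and skin keratinocytes (1.46). The red blood cell sum was 8.03, 6.42, 7.12, 37.0 and 318 CPM in CTX140 1 to 5 and 3.50 to 38.2 CPM in CTX100. Only CTX140 5 lay above the CTX100 range. The skeletal muscle sum was 11.2, 23.2, 218, 36.4 and 27.3 CPM in CTX100 1 to 5 and 13.9 to 26.7 CPM in CTX140, with CTX100 3 far the highest. The medians of the red blood cell and skeletal muscle lists were 2.15 and -1.93.

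**Figure D5:**
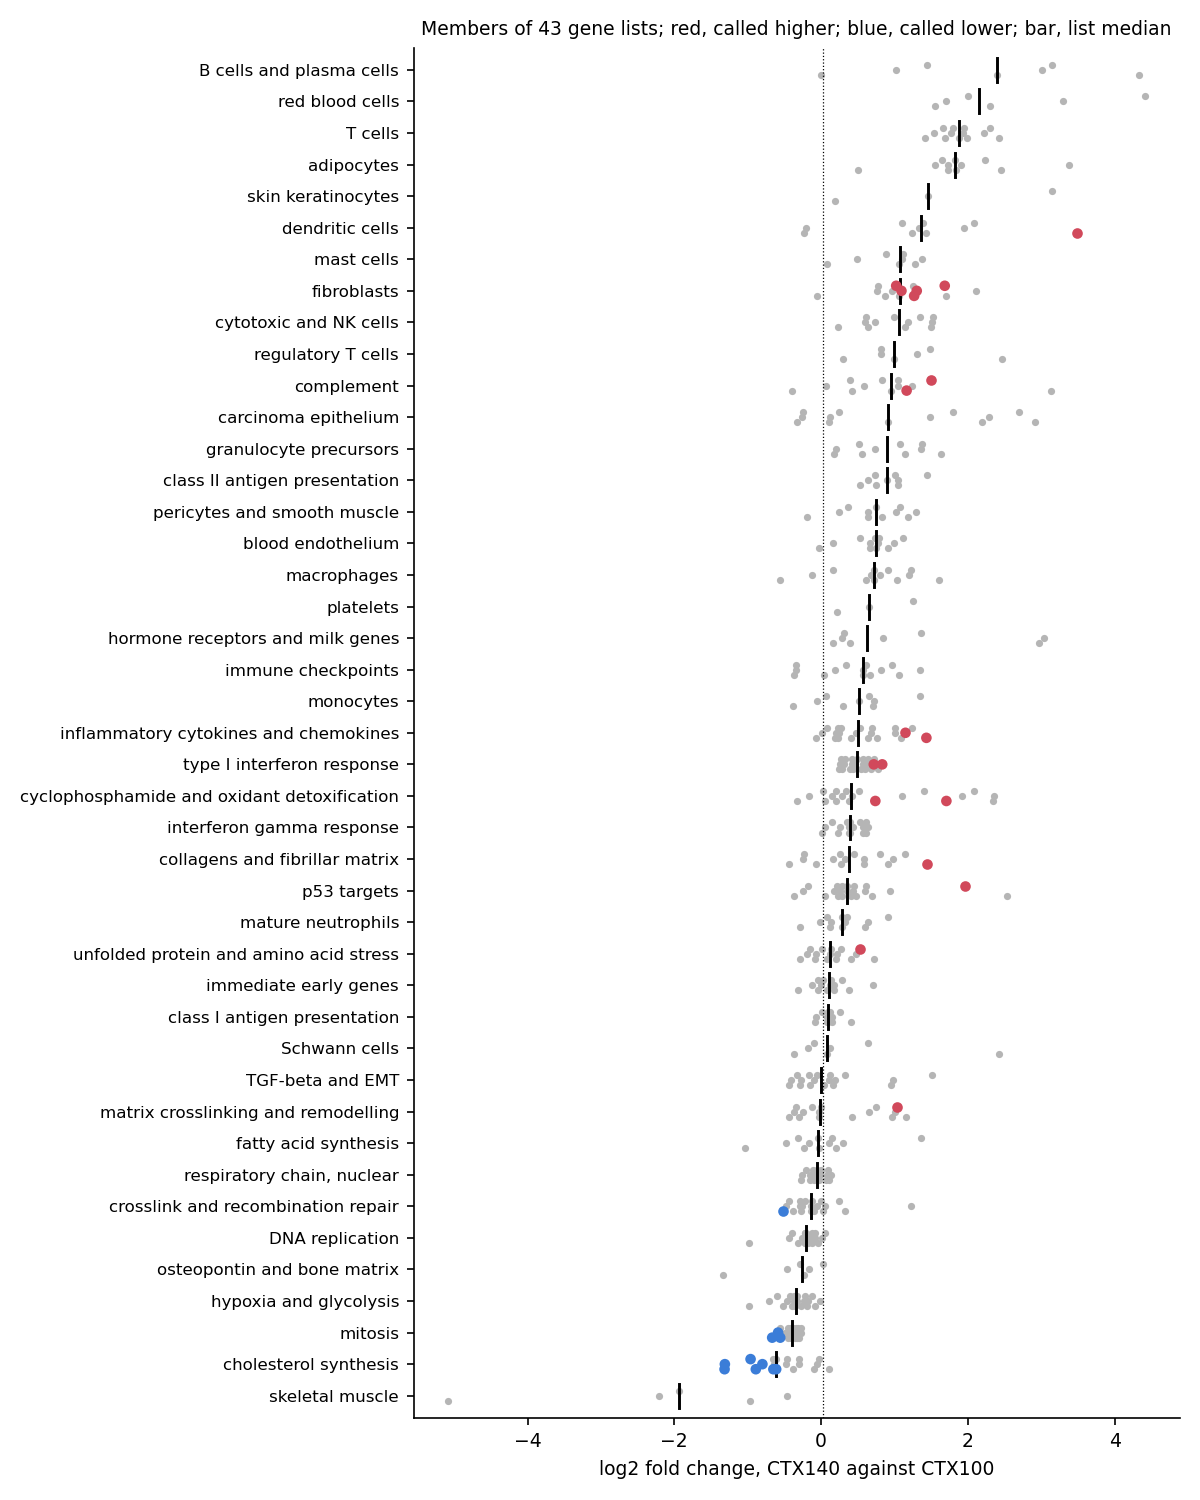
Log2 fold changes of CTX140 against CTX100 (horizontal axis) for the tested members of 43 gene lists (rows, sorted by median), 1 point per gene. Red points were called higher, blue points lower and grey points not called; the bar is the list median and the dotted line the median of all genes, 0.026. The 7 blue points of cholesterol synthesis and the 3 of mitosis lie in rows near the bottom, above skeletal muscle, which holds grey points only. Among lists with high medians, T cells and adipocytes hold grey points only, while fibroblasts hold 5 red points and dendritic cells 1.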

How the data were processed

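Bulk RNA-seq counts of 14 tumour libraries were used. The deposited table holds whole-number read counts per gene for 54532 genes, as the authors made them; the build mm10 and the tool DESeq2, without its role, come from the submitters' processing notes. For the aligner, the counting tool and the use of strand, nothing is given in the sources used here. A deposited FPKM table was not used. Groups came from the treatment label. Counts were tested with edgeR 4.0.16 (R 4.3.3): TMM factors, filterByExpr by group, which left 15360 genes, a robust quasi-likelihood fit of all 14 libraries with 1 mean per group, and Benjamini-Hochberg adjustment over all genes. A gene filtered in through CTX140 alone had to be higher there. The SE is the absolute log2 fold change divided by the root of F. CPM use TMM-scaled totals. Alternatives were other normalizations and filters, a replicate block, a fold threshold, DESeq2 1.42.0, limma 3.58.1 voom and leaving out each library. The simulated test used 15176 genes, with 4 false calls among 131 and 84% of 3-fold and of 4-fold changes found.

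The comparison, its members and the 43 gene lists (594 symbols, 557 of them tested) were chosen with earlier results of these data known. The text names, of the called protein-coding genes of at least 1 CPM with a full gene name, the 10 with the highest and the 10 with the lowest fold change, up to 3 called genes per list by smallest p, and the 2 most abundant genes of lists without a call; other named genes were chosen after their values were seen. Some genes so taken are not reported here. Promoters came from a RefSeq table on GRCm38.p6. No pair of libraries was identical.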

Additional observations from a re-analysis of the deposited data

Results flagged for a closer look

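In 54 of 534 groups of 4 or 5 libraries, 1 library lay far from the others. The rule flags about 1 in 20 groups of independent, normally distributed values. The values here are CPM of genes partly chosen by those values, and sums of related genes, so the 2 rates cannot be compared. Of the 54, 18 were values of CTX140 1. All are given in CPM. In CTX100 1, far above or below the other libraries of its group, lay Ngp at 5.25 and Htra3 at 25.9. CTX100 3 stood apart with Acta1 at 104, Spp1 at 2462, Hp at 122, Fmo1 at 1.20, the summed skeletal muscle list at 218, the summed mitosis list at 2879 and the summed osteopontin and bone matrix list at 2539.9. Values of CTX100 4 outside its group were Csn3 at 16.1. CTX100 5 also differed from its group in Wwtr1 at 143, Hdc at 141, Areg at 53.02, Ifit3 at 77.2 and the summed mast cells list at 177. Far from the rest of its group, CTX140 1 had Idi1 at 5.51, Itgav at 123, Mbp at 51.3, mt-Rnr2 at 1427, Il2ra at 24.7, Trbc2 at 163 and Ighm at 142. For CTX140 1 the values apart from its group were Fmo1 at 7.97, Mme at 12.9, Wfdc18 at 17.9, Clca1 at 6.53, Ccl17 at 109, Cldn10 at 7.37 and Dmbt1 at 17.0. In CTX140 1, far above or below the other libraries of its group, lay the summed dendritic cells list at 626, the summed T cells list at 1066, the summed regulatory T cells list at 115 and the summed B cells and plasma cells list at 511. For CTX140 2 the values apart from its group were Krt8 at 692, Krt18 at 456, Acta2 at 102 and the summed class I antigen presentation list at 11399.9. CTX140 5 stood apart with Hbb-bs at 125, Hba-a1 at 133 and the summed red blood cells list at 318. Values of PBS 1 outside its group were Ighm at 61.2, Dmbt1 at 0.0603, the summed T cells list at 169 and the summed B cells and plasma cells list at 423. PBS 2 also differed from its group in Krt18 at 995 and Ces2g at 0.410. Far from the rest of its group, PBS 3 had Rnf213 at 89.4, Itga8 at 3.84, Ccl11 at 5.59 and the summed Schwann cells list at 161. For PBS 4 the values apart from its group were Acta1 at 3.35, Wfdc18 at 0.0549, the summed interferon gamma response list at 2016 and the summed cyclophosphamide and oxidant detoxification list at 610.0.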

How the results depend on the processing

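The 192 calls (119 higher, 73 lower) were 293 with the replicate block (215 higher), 1250 with DESeq2 (823 and 427) and 0 (0 and 0, 403 at an unadjusted p under 0.05) when a log2 fold change of at least 1 was tested with edgeR. Leaving out 1 library gave 0 to 1007 calls, 0 to 684 higher and 0 to 323 lower. Calls were 205 with only the 10 CTX libraries fitted, 190 with RLE factors, 187 with upper quartile factors (133 higher, 54 lower), 248 without the filter, 194 with a filter of 1 CPM in 5 libraries and 167 with limma voom. Replicate numbers were not taken to pair the libraries, since the labels tie them to nothing shared. Whether libraries of the same number share an order or a batch was not tested. Deviations of CTX100 and CTX140 libraries with the same number correlated at 0.152, 0.0712, -0.0891, 0.222 and 0.242, and 4 of 5 numbers matched best with their own; 160 of the 192 calls were kept with the block. No called gene that is named changed sign under any alternative in which it was tested; where groups do not overlap, leaving out 1 library could not change it. Of named genes that were not called, Sdc1 turned to -0.017 without the filter and Gbp2 to -0.0060 with limma voom. When 1 library was left out, log2 fold changes crossed 0 for Mbp (-0.42 to 0.024), Aldoa (-0.17 to 0.019), Pcna (-0.19 to 0.0050), Sdc1 (-0.050 to 0.10), Spp1 (-0.055 to 0.066), Lgals9 (-0.049 to 0.12), Gbp2 (-0.18 to 0.19), Hdc (-0.014 to 0.36), Pmp22 (-0.014 to 0.16), Ngp (-0.035 to 0.30), Ppbp (-0.094 to 0.39), Areg (-0.028 to 0.51), Hbb-bs (-0.16 to 2.54) and Hba-a1 (-0.17 to 2.98). The cause of these differences was not tested. Depth limits the genes under 1 CPM in CTX100, whose fold changes rest on few counts.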

Other observations

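Further called genes outside the lists were named after their values were seen. The methionine salvage enzyme Mtap was read at 594, 603, 618, 636 and 639.6 CPM in CTX100 1 to 5 and 255, 374, 408, 405 and 493 CPM in CTX140 1 to 5. It fell without overlap, with a log2 fold change of -0.68 ± 0.14 (SE, edgeR adjusted p = 0.0314). The laminin receptor subunit Itga6 fell by 0.42 on the log2 scale (edgeR adjusted p = 0.0384) and the Hippo pathway coactivator Wwtr1 by 0.51 (adjusted p = 0.0384). Hoxa5 and Hoxc8, developmental regulators whose reads overlap other Hox genes, moved in opposite directions, at -0.46 ± 0.11 (adjusted p = 0.0476) and 1.4 ± 0.30 (adjusted p = 0.0383).

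Itga8, an integrin subunit, was read at 2.35, 2.19, 3.84 and 2.25 CPM in PBS 1 to 4, 0.845, 0.478, 0.952, 0.584 and 0.619 CPM in CTX100 1 to 5 and 2.52, 2.20, 1.72, 0.956 and 1.93 CPM in CTX140 1 to 5. CTX140 was higher than CTX100, with a log2 fold change of 1.41 ± 0.33 (SE, edgeR adjusted p = 0.0449), and against PBS the log2 fold change was -1.91 (adjusted p = 0.0172) at CTX100 and -0.51 (adjusted p = 0.274) at CTX140. Igfbp2, which binds insulin-like growth factors, rose without overlap, with a log2 fold change of 2.46 ± 0.42 (SE, edgeR adjusted p = 0.0260). The growth factor Vegfc and the receptor Fgfr1 rose with log2 fold changes of 0.97 ± 0.22 (adjusted p = 0.0440) and 0.92 ± 0.18 (adjusted p = 0.0294), and the laminin Lama4 and the protease Htra3 with 0.91 ± 0.22 (adjusted p = 0.0499) and 1.36 ± 0.27 (adjusted p = 0.0332). Hk3, a hexokinase of myeloid cells, was read at 50.1, 41.7, 36.4, 45.2 and 54.7 CPM in CTX100 and 85.0, 137, 92.1, 74.0 and 64.6 CPM in CTX140. It rose without overlap, with a log2 fold change of 0.99 ± 0.18 (SE, edgeR adjusted p = 0.0260), and the glycolytic regulator Pfkfb3 rose with 0.55 ± 0.12 (adjusted p = 0.0419).

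Interferon-inducible genes outside the list were also called: Slfn5 at 0.99 ± 0.21 (adjusted p = 0.0384), Slfn1 at 0.73 ± 0.17 (adjusted p = 0.0489), Rnf213 at 0.58 ± 0.12 (adjusted p = 0.0384) and Ifi205 at 1.06 ± 0.24 (adjusted p = 0.0420). The T cell costimulator Tnfrsf9, overlapped by Camta1, rose with 0.71 ± 0.16 (adjusted p = 0.0402). The mitochondrial ribosomal RNA mt-Rnr2 was read at 517, 340.2, 381, 602 and 552 CPM in CTX100 and 1427, 840.3, 948, 856 and 844 CPM in CTX140, and rose with a log2 fold change of 1.04 ± 0.24 (SE, edgeR adjusted p = 0.0449). Of the genes named in these 3 paragraphs, only Mtap, Igfbp2 and Hk3 were still called when CTX140 1 was left out (each at an adjusted p of 0.0435); the others then had adjusted p from 0.0502 to 0.0996.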
